A study of Homo sapiens with 12 samples.

Results

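The 5 genes described here, IRF1, IRF2, IRF3, IRF5 and IRF7, encode interferon regulatory factors and were taken by gene symbol from the 16383 genes of the table. All 5 were listed, and 3 of them (IRF1, IRF2 and IRF3) had a mean of at least 10 normalized counts over the 12 libraries, as 11242 genes did. IRF5 and IRF7 averaged 4.71 and 5.55, so they stayed under that minimum and were tested in a separate fit without it. RNA was sequenced in 4 groups of 3 libraries from wild-type IMR90, a fibroblast line established from human lung. Proliferating cells received no treatment. The other groups were irradiated with 20 Gy over 10 min to make them senescent. One of them received DMSO, the vehicle, and the others received palbociclib or ruxolitinib at 2 µM on days 4, 6, 8 and 10. They were harvested on day 11, so each senescent group shares the irradiation and differs in what was given afterwards. Palbociclib inhibits the cell cycle kinases CDK4 and CDK6, and ruxolitinib inhibits the kinases JAK1 and JAK2, which pass on the signal of interferon receptors. All groups come from 1 cell line, and nothing in the labels says that the 3 libraries of a group came from separate cultures, so p-values measure only the spread between these libraries.

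Interferon regulatory factors are transcription factors with a shared DNA-binding domain that recognises repeats of GAAA. IRF3 is present in resting cells and is switched on by phosphorylation, through the kinases TBK1 and IKBKE, when sensors of foreign or misplaced nucleic acid fire. IRF7 and IRF5 are close relatives that are also activated by phosphorylation, and IRF7 is itself induced by interferon, which amplifies the response. IRF1 is an activator induced by interferon and by NF-kB, and IRF2 binds the same element and mostly opposes it. A transcript level therefore says nothing of how much of IRF3, IRF5 or IRF7 protein was in its active form.

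The promoters show where such inducers could be read. Windows for 2 of the 5 members, IRF1 and IRF5, were taken from RefSeq (GRCh38.p14). The 250 bases before the start of IRF1, chr5:132490774-132491023 on the minus strand, are printed because IRF1 was called in every comparison below, and those before the start of IRF9, chr14:24161015-24161264 on the plus strand, because IRF9 is the family member outside the 5 with the highest level. Both run 5′ to 3′ towards the start. Capitals mark matches to TTCNNNGAA, the core of the GAS element, which interferon-activated factors bind, and in IRF1 also the NF-kB motif.
IRF1: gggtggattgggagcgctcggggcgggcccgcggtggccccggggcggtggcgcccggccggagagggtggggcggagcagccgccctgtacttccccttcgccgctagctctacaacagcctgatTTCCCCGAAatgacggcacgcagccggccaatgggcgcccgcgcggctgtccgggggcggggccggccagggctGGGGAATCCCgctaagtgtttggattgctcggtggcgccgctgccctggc
IRF9: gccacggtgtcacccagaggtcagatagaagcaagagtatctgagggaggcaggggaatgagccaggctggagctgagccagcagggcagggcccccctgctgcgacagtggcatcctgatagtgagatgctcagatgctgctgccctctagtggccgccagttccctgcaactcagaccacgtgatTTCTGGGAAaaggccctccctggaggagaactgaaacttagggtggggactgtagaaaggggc
The IRF1 window held the GAS letters TTCCCCGAA from 124 to 116 bases upstream and the NF-kB letters GGGGAATCCC from 50 to 41 bases upstream. The IRF9 window held the GAS letters TTCTGGGAA from 63 to 55 bases upstream. The 4 windows of IRF5 held none of the motifs searched on both strands, which were these and GAAANNGAAA, the core of the ISRE that interferon regulatory factors bind. Over all 35116 windows of the same length, 6.57% held the GAS letters, 3.02% the ISRE letters and 5.21% the NF-kB motif. A match is a description of letters and not of binding.

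The libraries held 14106799 to 21762412 reads over the listed genes, and no pair of libraries of 1 group agreed within counting noise. That disagreement, as chi-squared per degree of freedom between libraries, was unequal across groups. It was 2.92 to 16.8 in proliferating cells, 2.43 to 2.81 with DMSO, 6.36 to 24.7 with palbociclib and 1.98 to 2.78 with ruxolitinib. The main test used 1 variance per gene over all groups. The library numbers, A116 to A127, run in blocks by group, so any order of handling behind them and the group cannot be told apart. All 12 fibroblast markers passed the minimum. Their summed level was 873872 to 909086 in proliferating cells, 438877 to 445615 in the DMSO group, 685181 to 718835 in the palbociclib group and 547453 to 553493 in the ruxolitinib group. The deposited values are scaled per library, and scaling to the same total instead moved the median gene by 0.23 (log2) in DMSO against proliferating cells and by -0.23 in palbociclib against DMSO. In bulk RNA, fewer cells with a transcript and less of it per cell cannot be told apart.

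IRF1, the interferon- and NF-kB-inducible activator (chr5:132481609-132490773, minus strand), was highest in DMSO-treated senescent cells and lowest with palbociclib. In order of library number, proliferating cells had 418.2, 514.6 and 485.6 normalized counts (473 ± 49.5, SD, n = 3). DMSO-treated senescent cells had 644.4, 601.4 and 582.8 (609.5 ± 31.6). With palbociclib the values were 277.8, 353.6 and 312.7 (315 ± 37.9), and with ruxolitinib 413.6, 396.2 and 389.8 (399.9 ± 12.3). No library of any group overlapped with those of another group, so the order was DMSO, proliferating, ruxolitinib, palbociclib. Such a separation was common: it held for 75.1% of tested genes in DMSO against proliferating cells, 54.8% in palbociclib against DMSO and 31.9% in ruxolitinib against DMSO, and against proliferating cells for 70.9% with palbociclib and 76.2% with ruxolitinib.

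IRF1 rose by 0.37 on the log2 scale (95% interval 0.17 to 0.57, limma adjusted p = 0.00240) from proliferating to DMSO-treated senescent cells, a comparison in which 72.4% of tested genes were called at an adjusted p under 0.05. It fell by 0.96 (interval -1.16 to -0.76, limma adjusted p = 9.64e-07) with palbociclib against DMSO, to 51.5% of the DMSO level, where 48.3% of tested genes were called. Ruxolitinib lowered the IRF1 level by less: its log2 difference from DMSO was -0.61 (interval -0.81 to -0.41, limma adjusted p = 0.000970), or 65.7% of the DMSO level. In that comparison 4.52% of tested genes were called, 3.42% in the lower direction. This share depends on the fit: the count of 508 genes behind it became 1841 when only the DMSO and ruxolitinib groups were fitted, and 261 to 295 without 1 of their 6 libraries. The inhibitors share the DMSO libraries as controls, and compared with each other directly, the IRF1 level with palbociclib was 0.35 lower (log2 difference -0.35, interval -0.55 to -0.15, limma adjusted p = 0.00792; 40.4% of tested genes called). With palbociclib IRF1 was also under its proliferating level, at -0.59 (limma adjusted p = 3.91e-05; 73.8% of tested genes called).

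With ruxolitinib the difference in IRF1 from proliferating cells was -0.24 (interval -0.44 to -0.04, limma adjusted p = 0.0345; 72.2% of tested genes called). That call was lost at the same total, where the difference was -0.03 (limma adjusted p = 0.776). It was also lost without A123 (-0.23, limma adjusted p = 0.0792), A124 (-0.22, 0.0933), A126 (-0.17, 0.133) or A127 (-0.21, 0.0912), with differences of the same direction. Of the exonic bases of the IRF1 transcript, 16.3% are shared with the antisense gene IRF1-AS1, and the strand setting of the count is not given in the sources used here, so reads from that stretch could belong to either.

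**Figure D1:**
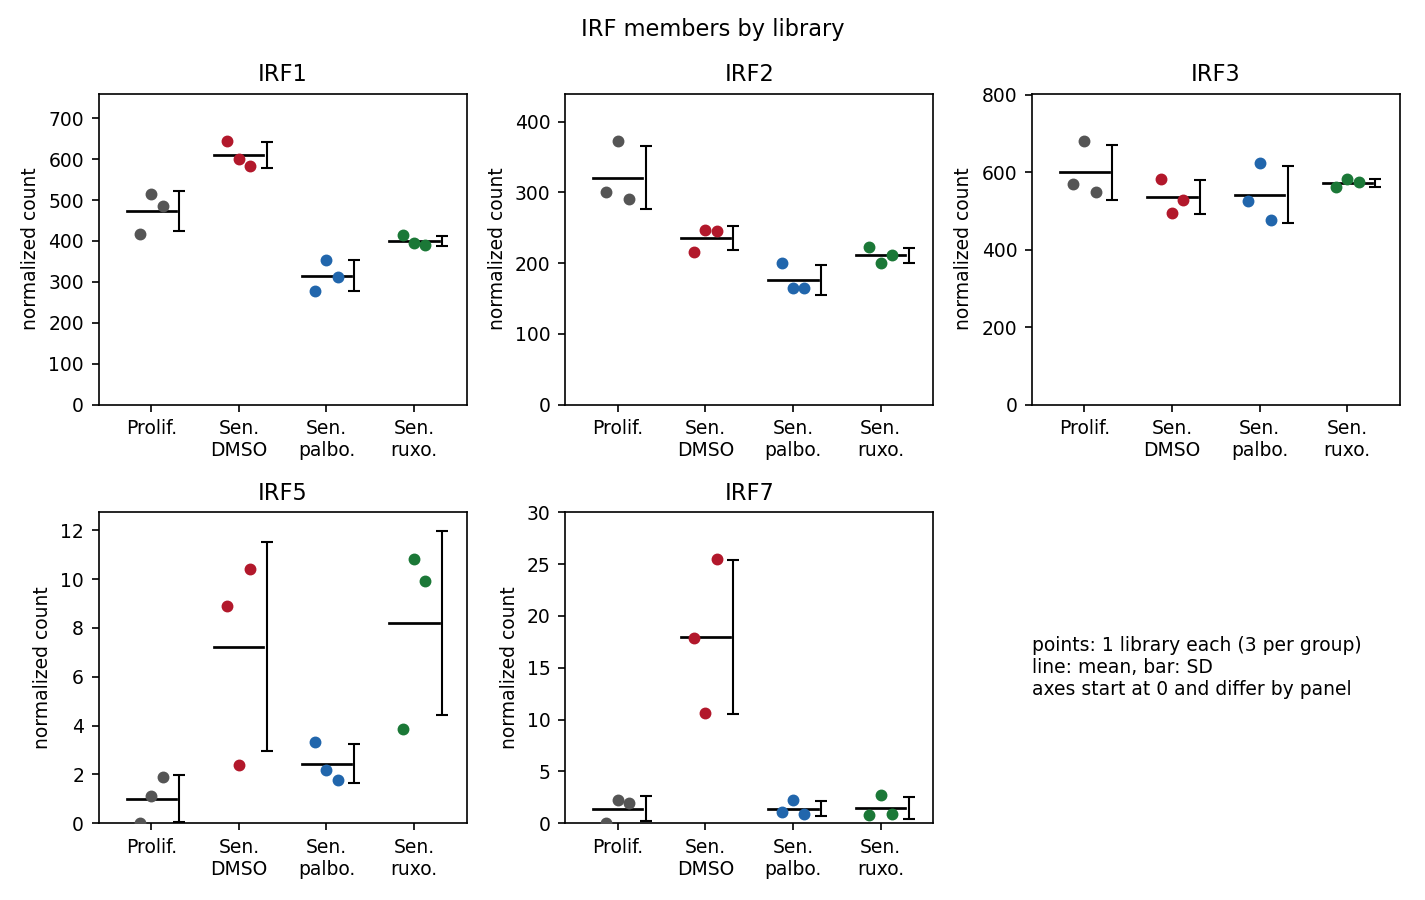
Normalized counts of the 5 members in each of the 12 libraries (vertical axis, starting at 0 and different in each panel) by group (horizontal axis). Points are libraries, lines are means and bars are SDs over 3 libraries. The IRF7 libraries with DMSO sit between 10.7 and 25.4, above every library of the other groups, while the IRF3 groups overlap throughout.

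IRF2, the counterpart that competes with IRF1 for the same element (chr4:184387729-184474550, minus strand), was highest in proliferating cells. Its values there were 299.9, 372.6 and 290.4 normalized counts (321 ± 45.0, SD, n = 3). With DMSO they were 215.8, 246.2 and 245.1 (235.7 ± 17.3). With palbociclib they were 200.3, 164.2 and 164.3 (176.3 ± 20.8), and with ruxolitinib 222.2, 200.8 and 211.1 (211.4 ± 10.7). Every senescent library was below every proliferating one, and the DMSO and ruxolitinib libraries overlapped.

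IRF2 fell by 0.44 on the log2 scale (interval -0.68 to -0.20, limma adjusted p = 0.00253) in DMSO-treated senescent against proliferating cells. At the same total the difference was -0.21 and was not called (limma adjusted p = 0.113). It fell by 0.42 with palbociclib against DMSO (interval -0.66 to -0.18, limma adjusted p = 0.00632), a call that was lost under quantile normalization (-0.26, limma adjusted p = 0.0648). With ruxolitinib the difference from DMSO was -0.16 and did not pass the test (interval -0.39 to 0.08, limma adjusted p = 0.567). Against proliferating cells, IRF2 was lower with palbociclib (-0.86, limma adjusted p = 4.46e-06) and with ruxolitinib (-0.59, limma adjusted p = 0.000204).

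For IRF2, palbociclib and ruxolitinib differed by -0.27 (interval -0.51 to -0.03) and the difference was not called (limma adjusted p = 0.0714), although their libraries did not overlap. In that comparison the groups did not overlap for 51.8% of tested genes. The call appeared at the same total (-0.47, limma adjusted p = 0.00384) and at the same upper quartile (-0.34, limma adjusted p = 0.0298). It also appeared without A119, a palbociclib library (-0.36, limma adjusted p = 0.0198). Without A126, a proliferating library that enters this comparison only through the pooled variance, the difference was still -0.27 and was called (limma adjusted p = 0.0408).

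Of 3 corepressors that bind IRF2, 2 were analysed, and these passed the minimum and were tested. IRF2BPL fell by 0.23 on the log2 scale (limma adjusted p = 0.00863) in DMSO-treated senescent cells, and IRF2BP1 differed by -0.18 (limma adjusted p = 0.0837). Neither was called for an inhibitor against DMSO. Against proliferating cells, IRF2BP1 fell by 0.39 (limma adjusted p = 0.00115) and IRF2BPL fell by 0.27 (limma adjusted p = 0.00328) with palbociclib, and IRF2BPL fell by 0.18 with ruxolitinib (limma adjusted p = 0.0352).

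The level of IRF1 relative to IRF2 within a library is free of library scaling. The log2 ratio was 0.48, 0.46 and 0.74 in proliferating cells (0.56 ± 0.16, SD, n = 3), and 1.57, 1.28 and 1.25 with DMSO (1.37 ± 0.18). It was 0.47, 1.10 and 0.92 with palbociclib (0.83 ± 0.33), and 0.89, 0.98 and 0.88 with ruxolitinib (0.92 ± 0.05). The DMSO libraries were above all others and shifted by 0.81 from proliferating cells, a 1.75-fold change. From DMSO, the ratio fell by 0.54 with palbociclib and fell by 0.45 with ruxolitinib. With ruxolitinib it stayed above every proliferating library, by 0.36 on average. Each of these 4 differences had an exact two-sided permutation p of 0.1, the smallest that 3 against 3 can give, or 0.171 after adjustment over 12 ratio tests. Between the inhibitors the ratio differed by -0.09 (exact permutation p = 0.9), and A119, the library at 0.47, set its sign, since without it the difference was 0.10.

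**Figure D2:**
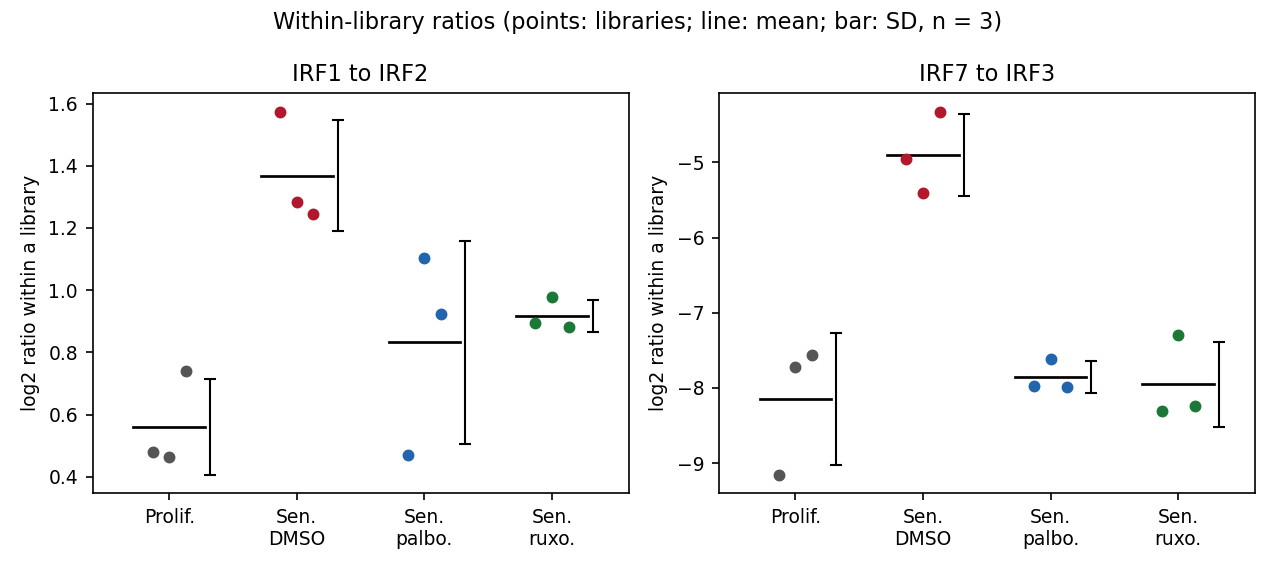
Log2 ratio of IRF1 to IRF2 (left) and of IRF7 to IRF3 (right) within each library (vertical axis) by group (horizontal axis), with the mean as a line and the SD over 3 libraries as a bar. For IRF1 to IRF2 the DMSO mean is 1.37 and the others lie between 0.56 and 0.92, and for IRF7 to IRF3 the DMSO mean is -4.90 and the others lie between -8.15 and -7.86.

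IRF3, the constitutive factor that TBK1 activates (chr19:49659572-49665857, minus strand), was not called in any comparison of the main test. Proliferating cells had 570.7, 680.9 and 549.4 normalized counts (600.4 ± 70.6, SD, n = 3). With DMSO the values were 582.0, 494.8 and 528.4 (535.1 ± 44.0), with palbociclib 526.8, 622.9 and 477.9 (542.5 ± 73.8), and with ruxolitinib 561.7, 582.6 and 575.7 (573.3 ± 10.6). All groups overlapped.

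For IRF3 the log2 difference was -0.16 (interval -0.38 to 0.05, limma adjusted p = 0.155) in DMSO against proliferating cells. It was 0.01 (interval -0.20 to 0.23) for palbociclib and 0.10 (interval -0.11 to 0.32) for ruxolitinib against DMSO, with limma adjusted p = 0.917 and 0.694. Between the inhibitors it was -0.09 (interval -0.30 to 0.12, limma adjusted p = 0.511), and at the same total it became -0.29 and was called (limma adjusted p = 0.0339). The difference of palbociclib from proliferating cells, -0.15 (limma adjusted p = 0.191), was called without A120 (-0.25, limma adjusted p = 0.0231). Of the exonic bases of the IRF3 transcript, 14.2% are shared with the antisense gene BCL2L12, whose mean was 502.6 ± 35.8 in proliferating cells and 126.1 ± 15.2 to 160.2 ± 21.2 in the senescent groups. Its part in the IRF3 values was not tested.

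**Figure D3:**
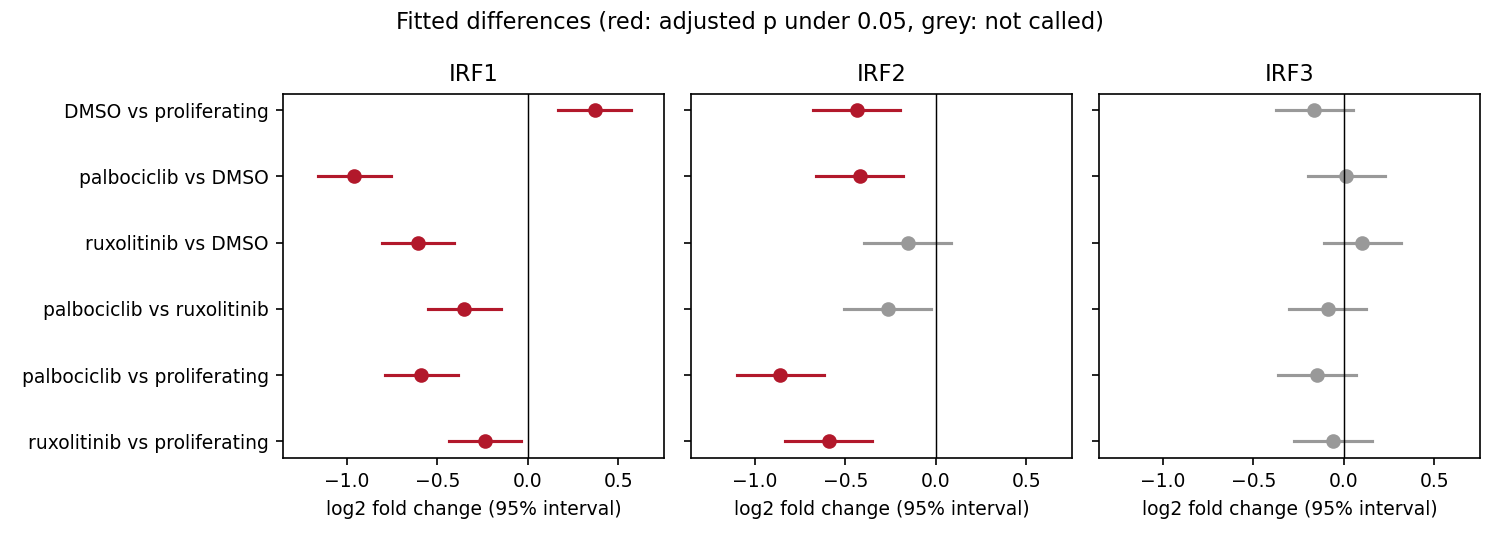
Log2 fold change (horizontal axis) with its 95% interval for IRF1, IRF2 and IRF3 in each of the 6 comparisons (vertical axis), from the limma fit. Red marks an adjusted p under 0.05, and IRF1 is red in all 6, IRF2 in 4 and IRF3 in none.

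IRF7, the interferon-inducible relative of IRF3 (chr11:612555-615950, minus strand), was scarce and was found mainly in DMSO-treated senescent cells. In whole reads, proliferating cells had 0, 2 and 2, DMSO-treated senescent cells 18, 9 and 22, palbociclib 1, 2 and 1, and ruxolitinib 1, 3 and 1. As normalized counts the DMSO libraries held 17.8, 10.7 and 25.4 (18.0 ± 7.39, SD, n = 3), and the means of the other groups were 1.37 ± 1.20, 1.39 ± 0.697 and 1.46 ± 1.08. Every DMSO library was above every library of the other groups, a separation seen for 63.0% of the 15125 genes with any read against proliferating cells, 45.2% against palbociclib and 26.0% against ruxolitinib.

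Scaled for depth, IRF7 reads were 13.1 times as many with DMSO as in proliferating cells (95% counting interval 4.81 to 50.1). They were 13.3 times as many with DMSO as with palbociclib (4.86 to 50.6) and 12.7 times as many as with ruxolitinib (5.07 to 40.7). These intervals cover counting error only. In the fit of those 15125 genes, IRF7 rose by 3.09 (SE 0.49, limma adjusted p = 5.89e-05) with DMSO against proliferating cells, where 60.0% of those genes were called. It fell by 2.95 with palbociclib against DMSO (limma adjusted p = 0.000273; 37.2% called) and fell by 2.95 with ruxolitinib (limma adjusted p = 0.00274; 2.92% called). These fitted values understate the change of so low a gene and move with the settings: over the alternatives they were 1.82 to 4.46, -3.73 to -1.80 and -3.66 to -1.79.

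On the recovered reads edgeR called IRF7 in the same 3 comparisons, with adjusted p = 7.71e-05, 0.000210 and 0.00146, where it called 58.8%, 36.6% and 3.8% of the genes. The limma call for ruxolitinib was lost at a pseudocount of 0.1 (-3.66, adjusted p = 0.0844). Among the remaining groups IRF7 differences were 0.01 to 0.15 and none was called, with intervals about 1 log2 unit to each side (for palbociclib against ruxolitinib, -1.04 to 1.06). With 4 or 5 reads in 3 libraries, a difference smaller than these intervals was not detectable at this depth.

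The log2 ratio of IRF7 to IRF3 followed the IRF7 values. Its mean was -8.15 ± 0.88 in proliferating cells, -4.90 ± 0.55 in the DMSO group, -7.86 ± 0.21 in the palbociclib group and -7.95 ± 0.56 in the ruxolitinib group (SD, n = 3). The DMSO libraries did not overlap with any other group. The shift was 3.25 from proliferating cells, -2.96 for palbociclib and -3.06 for ruxolitinib against DMSO, each with an exact permutation p of 0.1 (0.171 after adjustment over the same 12 tests). Over the alternatives these shifts were 1.98 to 4.62, -3.62 to -1.81 and -3.76 to -1.89.

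IRF5, which acts below Toll-like receptors and MYD88 (chr7:128937032-128950038, plus strand), was as scarce as IRF7 but was not low with ruxolitinib. Proliferating cells had 0, 1 and 2 reads, DMSO-treated senescent cells 9, 2 and 9, palbociclib 3, 2 and 2, and ruxolitinib 5, 12 and 11. The group means were 1.00 ± 0.957, 7.23 ± 4.28, 2.43 ± 0.799 and 8.20 ± 3.78 normalized counts (SD, n = 3). The DMSO and ruxolitinib libraries overlapped, both groups were above all proliferating libraries, and ruxolitinib was above palbociclib. Against proliferating cells the ruxolitinib libraries stood apart for 64.1% of genes, and against palbociclib for 43.1%.

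IRF5 reads were 7.15 times as many with DMSO as in proliferating cells (95% counting interval 2.12 to 37.6) and 7.74 times as many with ruxolitinib (2.39 to 39.8). Without a minimum IRF5 rose by 1.99 (SE 0.53, limma adjusted p = 0.00433) with DMSO and by 2.23 (limma adjusted p = 0.00193; 59.7% called) with ruxolitinib against proliferating cells. Over the alternatives, which include other pseudocounts, these were 0.97 to 3.30 and 1.10 to 3.60, and all were called. Between ruxolitinib and DMSO the difference was 0.24 (interval -0.89 to 1.37, limma adjusted p = 0.900).

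For palbociclib the difference in IRF5 was -1.10 against DMSO (interval -2.23 to 0.02, limma adjusted p = 0.118) and -1.34 against ruxolitinib (limma adjusted p = 0.0674; 31.2% called), neither called. The difference from DMSO was called without A117, the DMSO library with 2 reads (-1.66, limma adjusted p = 0.0294). The difference from ruxolitinib was still -1.34 without A117, which enters it only through the pooled variance, and was called there (limma adjusted p = 0.0467). It was also called at a pseudocount of 5 (-0.79, limma adjusted p = 0.0435).

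IRF5 and IRF7 are abundant in immune cells, so markers of these were set beside them. Of 14 such markers, 5 passed the minimum. With DMSO against proliferating cells 4 rose and 1 fell. On the log2 scale CD14 rose by 2.71, SPI1 by 1.74, CD68 by 1.16 and CSF1R by 1.08, and CORO1A fell by 2.08. Against DMSO, 3 fell with palbociclib and none was called with ruxolitinib. The 3 were CSF1R (-1.53), CD14 (-1.14) and CD68 (-0.74). The called shares were 100%, 60% and 0%, beside 72.4%, 48.3% and 4.52% of all tested genes. The summed level of the 14 markers was 611 to 653 in proliferating cells and 1300 to 1385 in the DMSO group. It was 744 to 855 in the palbociclib group and 1173 to 1241 in the ruxolitinib group. Most of it came from CD68, a lysosomal protein, with means of 548.7, 1232, 740.6 and 1093. PTPRC, which encodes CD45 and defines blood cells, had 2, 13, 12 and 8 reads in the same order. The part of these markers in the IRF5 and IRF7 results was not tested.

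Per kilobase of transcript, IRF3 stood at 335.5 to 376.4 normalized counts in all groups and was the most abundant member throughout. IRF1 stood at 171.5 with DMSO and 88.5 with palbociclib, and IRF2 at 142.2 in proliferating cells and 78.1 with palbociclib. In proliferating cells the mean of IRF2 was 142.2 and that of IRF1 133, with libraries that overlapped, and in the other groups the mean of IRF2 was the lower. IRF7 reached 9.34 with DMSO and IRF5 reached 2.83 with ruxolitinib, so even at their highest both were far below the other members.

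Of the other family members described here, only IRF9, the DNA-binding subunit of the complex ISGF3, passed the minimum. Its mean was 355.3 ± 33.4 in proliferating cells, 1549 ± 28.1 in the DMSO group, 515.2 ± 71.5 in the palbociclib group and 301.9 ± 0.605 in the ruxolitinib group (SD, n = 3). IRF9 rose by 2.13 (limma adjusted p = 1.23e-11) with DMSO and fell by 1.60 with palbociclib (limma adjusted p = 2.51e-09) and fell by 2.36 with ruxolitinib (limma adjusted p = 1.15e-10) against DMSO. The IRF9 value is uncertain, because 93.1% of its exonic bases are shared with ENSG00000259529 on the same strand. Summed over the proliferating, DMSO, palbociclib and ruxolitinib libraries in turn, IRF4, a lymphoid factor, had 2, 16, 2 and 20 reads. IRF8, a myeloid factor, had 0, 0, 3 and 2.

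Upstream of IRF3, IRF5 and IRF7, 22 of 24 sensors, adaptors and kinases of the list were analysed. Of these, 18 passed the minimum and were tested. With DMSO against proliferating cells 10 rose and 3 fell (median 0.34, against -0.05 for all genes), with palbociclib 3 rose and 8 fell (-0.13, against 0.02), and with ruxolitinib 4 fell (-0.10, against -0.00). The called shares of the list were 72.2%, 61.1% and 22.2%, beside 72.4%, 48.3% and 4.52% of all tested genes. With DMSO the list was thus at the share of all tested genes. The 4 that fell with ruxolitinib were RIGI, IFIH1, DHX58 and MYD88. The sensor TLR3 averaged under 10 over the 9 libraries outside the DMSO group, so it passed the minimum only through that group. It was counted among the genes that rose with DMSO and fell with palbociclib. IFIH1, the sensor MDA5, rose by 3.14 with DMSO (limma adjusted p = 5.09e-11) and fell by 3.50 with palbociclib and fell by 3.37 with ruxolitinib. RIGI, the sensor RIG-I, rose by 2.37, fell by 1.24 with palbociclib and fell by 1.47 with ruxolitinib. The sensor CGAS went the other way with DMSO, where it fell by 1.19 (limma adjusted p = 2.74e-06). Against DMSO it fell by 0.85 with palbociclib (limma adjusted p = 0.000263) and differed by -0.35 with ruxolitinib (limma adjusted p = 0.261). TBK1, the kinase of IRF3, differed by 0.15 with DMSO (limma adjusted p = 0.124), fell by 0.27 with palbociclib (limma adjusted p = 0.0146) and differed by -0.02 with ruxolitinib (limma adjusted p = 0.938).

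The 17 interferon genes of the list were all under the minimum. Their summed level was 0.952 to 6.23 in proliferating cells, 18.8 to 24.3 in the DMSO group, 9.77 to 17.7 in the palbociclib group and 18.0 to 19.8 in the ruxolitinib group. IFNB1, the interferon that IRF3 switches on, had 0 reads in proliferating cells, 9 in the DMSO group, 1 in the palbociclib group and 5 in the ruxolitinib group. Of 11 interferon receptors, JAKs and STATs, 6 rose and 1 fell with DMSO against proliferating cells. Against DMSO, 2 rose and 2 fell with palbociclib, and 1 rose and 3 fell with ruxolitinib. Their called shares were 63.6%, 36.4% and 36.4%, beside 72.4%, 48.3% and 4.52% of all tested genes. Of 5 inhibitors of this signalling on the same list, SOCS1, SOCS3, PTPN2 and PIAS1 fell with DMSO, while USP18, an interferon-inducible one, rose. With palbociclib 3 of the 5 fell and with ruxolitinib 2 fell against DMSO. The called shares of these inhibitors were 100%, 60% and 40%, beside the same shares of all tested genes.

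Downstream, 18 of 26 genes linked to IRF1 were tested. With DMSO 6 rose (B2M, ICAM1, IFI35, VCAM1, TNFSF10 and BATF2) and 4 fell (GBP2, IL15, WARS1 and CD274), with a median of 0.21. With palbociclib 2 rose (VCAM1 and WARS1) and 11 fell (median -0.67), and with ruxolitinib none rose and 11 fell (median -0.54). The called shares were 55.6%, 72.2% and 61.1%, beside 72.4%, 48.3% and 4.52% of all tested genes. TNFSF10 averaged under 10 over the 9 libraries outside the DMSO group, so it passed the minimum only through that group. It was counted among the genes that rose with DMSO and fell with palbociclib. CASP1, the inflammasome protease, differed by -0.01 with DMSO (limma adjusted p = 0.951) and fell by 1.76 with palbociclib and fell by 0.92 with ruxolitinib. GBP2, a guanylate-binding protein, fell by 0.49 with DMSO, and fell by 0.96 with palbociclib and fell by 0.50 with ruxolitinib against DMSO. NLRC5, the transactivator of MHC class I genes, differed by 0.12 with DMSO (limma adjusted p = 0.152) and fell by 0.90 with each inhibitor.

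Of 18 genes linked to IRF3 and IRF7, 17 were tested. All 17 rose with DMSO (median 5.70), all 17 fell with palbociclib (-3.88) and 16 fell with ruxolitinib (-2.98). The called shares were 100%, 100% and 94.1%, beside 72.4%, 48.3% and 4.52% of all tested genes. Of the 17, RSAD2, OAS1, IFI44L and CMPK2 averaged under 10 over the 9 libraries outside the DMSO group, so they passed the minimum only through that group and had to differ from it. OAS1 and RSAD2 had 0 reads in proliferating cells. Set at bounds from 3 reads over that group (log2 8.31 and 7.71), they still lay above the median of 5.70, which therefore could not move. IFIT2, an antiviral RNA-binding protein, had means of 29.8 ± 7.98, 1561 ± 55.5, 173.2 ± 40.8 and 395.6 ± 30.2 normalized counts in proliferating, DMSO, palbociclib and ruxolitinib libraries (SD, n = 3). Against proliferating cells 13 of the 17 were higher and 1, ISG20, was lower (-0.85) with palbociclib, and 13 were higher with ruxolitinib (medians 1.82 and 1.22). The called shares, 82.4% and 76.5%, stood beside 73.8% and 72.2% of all tested genes.

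**Figure D4:**
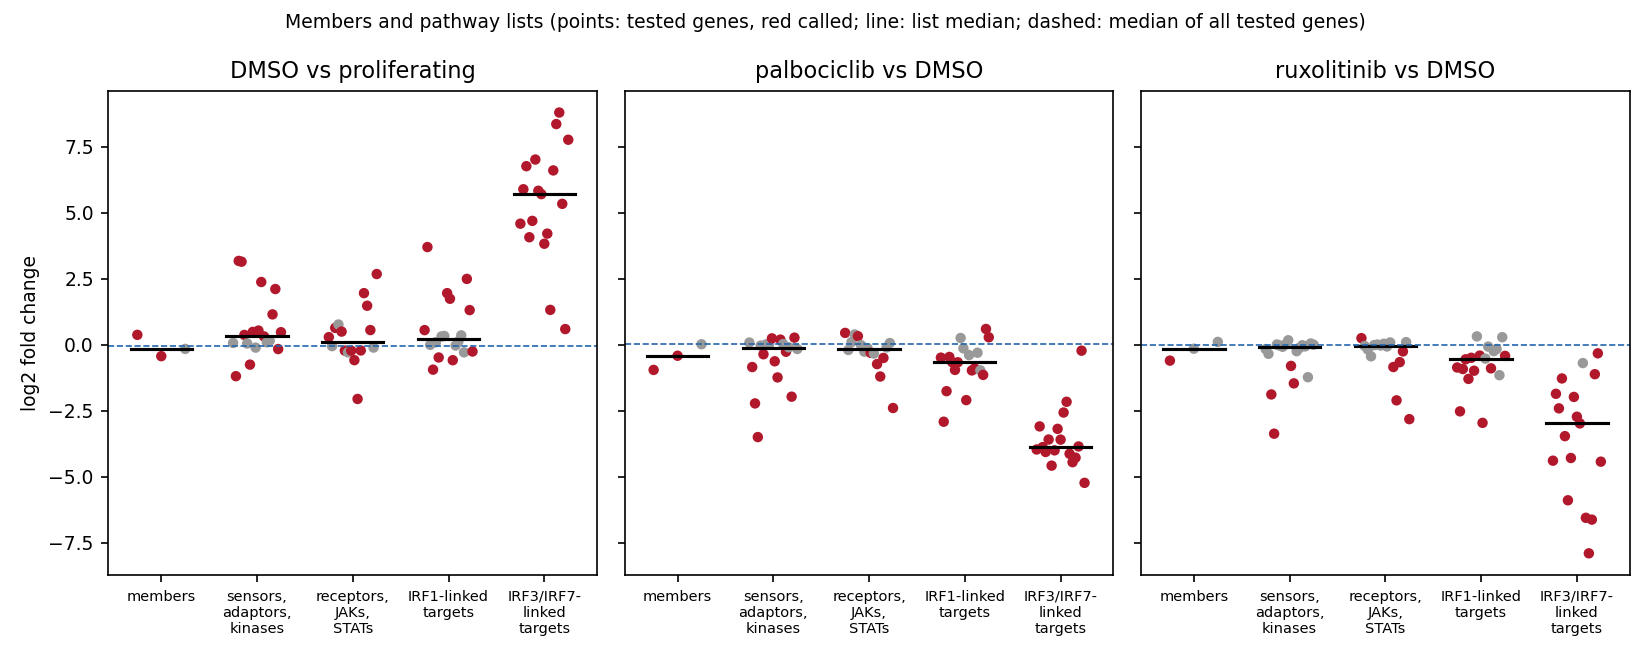
Log2 fold change (vertical axis) of each tested gene in the members and in 4 gene lists (horizontal axis) for DMSO against proliferating cells, palbociclib against DMSO and ruxolitinib against DMSO. Points are genes, red where called (the receptor, JAK and STAT column also holds the 5 inhibitors), the short line is the list median and the dashed line the median of all tested genes. The genes linked to IRF3 and IRF7 have medians of 5.70, -3.88 and -2.98.

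Across the 12 libraries, the genes whose log2 levels were most like a member's, by Pearson's r and with no test, differed between members. For IRF7 they were HERC6 (0.929), MX2 (0.920), TMEM140, UBE2L6 and UBA7. For IRF1 they were PSME2 and TRAF3IP2 (0.934 each), CSF1 (0.931), ERAP2 and S1PR1. For IRF2 HPS4 was the closest (0.969), for IRF3 GTF3C6 (0.925) and for IRF5 HEXIM2 (0.919). Between members, r was 0.747 for IRF1 with IRF7 and 0.540 for IRF1 with IRF2, and IRF7 with IRF9 gave 0.893. All these values share the 4 groups and the library scaling.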

How the data were processed

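RNA was measured in 12 poly(A) libraries extracted with TRIzol, per the labels' protocols. The submitters' processing notes name Trimmomatic 0.38.1, HISAT2 2.2.1, featureCounts 2.0.3, DESeq2 2.11.40.8 and hg38; annotation and strand setting are not given in the sources used here. The authors deposited 1 table of normalized counts, a signal that is never negative. All 160380 values above 0 were whole multiples of 1 read's worth (tolerance 0.01), so reads were recovered. Columns were matched to groups by name. They carry no replicate number.

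The main test was limma 3.58.1, run in R 4.3.3 on log2-transformed normalized counts (pseudocount 1) with a variance trend and 4 group means over 12 libraries and Benjamini-Hochberg adjustment over 11242 genes with a mean of at least 10, called at an adjusted p under 0.05. Alternatives were other pseudocounts (0.1, 5), minimums (none, 50), scalings (same total, upper quartile, quantile), no trend, only the compared groups, each library left out, edgeR 4.0.16 and DESeq2 1.42.0 on reads. The tests without the minimum for IRF5 and IRF7, and the split of inhibitors from receptors, JAKs and STATs, were added after seeing the data. Scripts were tested on simulated data. Members and gene lists were chosen with earlier results of these data known. Named genes are the members and genes of those lists, plus the 5 most like each member. Of the list genes, 3 were not analysed here. Some further list genes are not reported here. Transcript lengths and exon overlaps are from GENCODE 44 and gene positions from RefSeq GRCh38.p14.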

Additional observations from a re-analysis of the deposited data

Results flagged for a closer look

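The palbociclib and ruxolitinib effects on IRF1 differed from each other: against shared DMSO libraries, the log2 difference between them was -0.35 (limma adjusted p = 0.00792), with all 3 palbociclib libraries below all 3 ruxolitinib libraries. For IRF9 the difference was 0.76 in the other direction (limma adjusted p = 1.12e-05), with all 3 palbociclib libraries above all 3 ruxolitinib libraries. Between palbociclib and ruxolitinib 40.4% of tested genes were called, and the groups did not overlap for 51.8%. The IRF9 value stays uncertain, since 93.1% of its exonic bases are shared with ENSG00000259529.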

How the results depend on the processing

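IRF1 kept its direction and call in 23 of 23 alternatives in DMSO against proliferating (0.28 to 0.60), palbociclib against DMSO (-1.18 to -0.87), ruxolitinib against DMSO (-0.64 to -0.57), palbociclib against ruxolitinib (-0.55 to -0.26) and palbociclib against proliferating (-0.67 to -0.40). Over all member results 559 alternatives left call and direction as they were, 12 lost a call, 9 gained one and 24 turned direction. Causes were not tested, unless the setting names fewer samples or genes.

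Members called, of 3, are given here with the share of all tested genes called in brackets. DMSO against proliferating, 2 (72.4%), became 4 of 5 with no minimum (60.0%) and 1 at the same total. Palbociclib against DMSO, 2 (48.3%), became 3 of 5 with no minimum (37.2%) and 1 under quantile normalization. Ruxolitinib against DMSO, 1 (4.52%), became 2 of 5 with no minimum (2.92%). Palbociclib against ruxolitinib, 1 (40.4%), became 3 at the same total, 2 at the same upper quartile and 1 to 2 with a library left out. Ruxolitinib against proliferating, 2 (72.2%), became 3 of 5 with no minimum (59.7%). It became 1 at the same total, the same upper quartile, quantile normalization, edgeR and DESeq2, and was 1 to 2 with a library left out. All genes called for ruxolitinib against DMSO, 508, became 1841 with only those groups fitted and 261 to 727 with a library left out, and 261 to 295 where that library was 1 of the 6 with DMSO or ruxolitinib.

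Directions that turned were of differences that were not called. For IRF3, DMSO against proliferating was 0.066 at the same total. Palbociclib against DMSO was -0.21 at the same total, -0.047 at the same upper quartile, -0.0098 with edgeR and -0.0071 with DESeq2, and -0.0895 to 0.10 with a library left out. Palbociclib against proliferating was 0.024 under quantile normalization. Ruxolitinib against proliferating was 0.14 at the same total, 0.11 at the same upper quartile, 0.12 under quantile normalization and 0.000624 with edgeR, and -0.12 to 0.034 with a library left out. IRF5, ruxolitinib against DMSO, was -0.31 to 0.65 with a library left out. IRF7, palbociclib against ruxolitinib, was -0.072 with edgeR, -0.084 with DESeq2 and -0.0071 at a pseudocount of 5. With a library left out IRF7 was -0.22 to 0.35 there, -0.39 to 0.45 for palbociclib and -0.40 to 0.44 for ruxolitinib against proliferating. The IRF1 to IRF2 ratio, palbociclib against ruxolitinib, was -0.22 to 0.10 with a library left out. The IRF7 to IRF3 ratio was then -0.083 to 0.42 for palbociclib against ruxolitinib, -0.21 to 0.59 for palbociclib and -0.31 to 0.49 for ruxolitinib against proliferating, and under quantile normalization -0.25 and -0.90 for those against proliferating. DESeq2 gave no adjusted p for IRF5 and IRF7 in ruxolitinib against DMSO.

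No paired analysis was possible because the columns carry no replicate numbers. Depth limits IRF5 and IRF7, with 3 to 49 reads per group.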

Other observations

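Among the family members under 10 normalized counts, reads fell into different orders. IRF4 and IRF5 were both as frequent with ruxolitinib as with DMSO within counting error. For IRF4 the depth-scaled ratio of ruxolitinib to DMSO reads was 0.967 (95% counting interval 0.476 to 2.00), and for IRF5 it was 1.08 (0.589 to 2.03). IRF7 reads were 12.7 times as many with DMSO as with ruxolitinib (5.07 to 40.7). IRF4 had 8.58 times as many reads with DMSO as in proliferating cells (2.02 to 76.9). These intervals cover counting error only and not the spread between libraries.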
